A study of Mus musculus with 6 samples.

Results

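Osteolectin, the secreted protein encoded by Clec11a, and the integrin that serves as its receptor, made of an alpha11 subunit (Itga11) and a beta1 subunit (Itgb1), were examined as RNA in primary mouse osteoblasts. These 3 genes were taken by name from the 55471 genes of the deposited count table, matched through their gene identifiers, and all 3 had enough reads to be tested among 13826 genes. In TCKO cells the ligand and its specific alpha subunit were lower. Clec11a stood at 8.74 ± 4.18 CPM (counts per 1000000 of an adjusted library size) against 84.1 ± 29.3 in WT. Itga11 stood at 49.9 ± 26.7 against 239 ± 6.08 (each value a mean ± SD, n = 3). The shared beta subunit was higher, with Itgb1 at 2929 ± 220 CPM in TCKO and 2021 ± 135 in WT.

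The cells were primary osteoblasts of the calvaria, the skull cap, from mice of the C57BL/6 strain at 3 days of age. Per the study's methods they were harvested after 3 days of culture, with no osteogenic induction stated for these libraries. The TCKO mice carried floxed alleles of Tet1, Tet2 and Tet3 (fl/fl at each gene), which encode the enzymes that oxidise 5-methylcytosine in DNA, together with the Prx1-Cre transgene. Prx1-Cre is a recombinase active in limb and part of the skull mesenchyme, so cells of other origin in the cultures would keep the intact genes. The control mice are labelled wild type, with no floxed allele or Cre stated. Poly(A) RNA was sequenced from 3 libraries of each genotype, with replicate numbers taken from the sample titles. Neither the number of mice behind a library nor whether mice were pooled is stated, so p-values measure the spread between these libraries, which may be technical.

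Osteolectin is a C-type lectin domain growth factor made by osteoblasts, hypertrophic chondrocytes and leptin receptor-expressing stromal cells of bone marrow, and it is known for promoting the osteogenic differentiation of skeletal stromal cells. Integrins are pairs of an alpha and a beta chain that span the cell membrane, bind ligands outside the cell and recruit adaptors and kinases inside it. The alpha11 chain pairs with beta1 alone and also binds fibrillar collagen, whereas beta1 pairs with many alpha chains. Downstream of the receptor, PI3K and AKT restrain GSK3, which otherwise marks beta-catenin for degradation.

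The promoters of the 3 genes are shown because TET enzymes act on methylated cytosine, which in mammals lies mostly in CpG dinucleotides. Each sequence, from RefSeq on build GRCm38.p6, runs 5′ to 3′ on the strand of the gene from 250 bases before to 50 bases after the RefSeq transcription start, with CpG dinucleotides in capitals. The Clec11a promoter lies at chr7:44306910-44307209 on the minus strand and the Itga11 promoter at chr9:62677605-62677904 on the plus strand. The Itgb1 promoter lies at chr8:128685404-128685703 on the plus strand.
Clec11a: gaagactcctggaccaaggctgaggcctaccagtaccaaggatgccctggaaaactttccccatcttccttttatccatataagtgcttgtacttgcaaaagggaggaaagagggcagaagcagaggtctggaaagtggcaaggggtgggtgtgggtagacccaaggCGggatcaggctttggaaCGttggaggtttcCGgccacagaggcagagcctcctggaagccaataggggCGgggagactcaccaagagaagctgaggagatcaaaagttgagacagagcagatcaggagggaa
Itga11: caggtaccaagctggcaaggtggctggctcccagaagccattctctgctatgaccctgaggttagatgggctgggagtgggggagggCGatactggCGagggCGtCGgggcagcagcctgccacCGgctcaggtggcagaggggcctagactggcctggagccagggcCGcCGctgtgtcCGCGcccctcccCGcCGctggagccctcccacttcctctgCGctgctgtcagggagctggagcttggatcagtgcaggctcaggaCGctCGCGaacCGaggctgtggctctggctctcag
Itgb1: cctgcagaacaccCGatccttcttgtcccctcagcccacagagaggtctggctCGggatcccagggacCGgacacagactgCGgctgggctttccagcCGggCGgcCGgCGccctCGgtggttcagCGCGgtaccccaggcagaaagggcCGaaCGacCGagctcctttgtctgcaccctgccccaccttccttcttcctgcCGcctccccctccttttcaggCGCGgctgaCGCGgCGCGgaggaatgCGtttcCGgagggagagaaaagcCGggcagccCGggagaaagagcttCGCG

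The 3 promoters differed in CpG content. The Clec11a window held 4 CpG dinucleotides, with an observed-to-expected ratio of 0.195, and 31.4% of the 32851 RefSeq promoter windows of 300 bases held fewer. In Itga11 the window held 16, with a ratio of 0.465, and 67.0% of windows held fewer. For Itgb1 the number was 27, with a ratio of 0.798, and 84.5% held fewer. The median over all windows was 7 CpG dinucleotides. The motifs TGTGGT and TGCGGT, core letters bound by Runx transcription factors, were searched on both strands and were absent from these 3 windows. They occurred in 16.8% and 6.5% of all windows, and their absence says only that these letters are not in this stretch. DNA methylation was not analysed here.

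Libraries held between 8019999 and 10177214 counts, and the limit that a count of 0 allows, 3 counts, was worth 0.295 to 0.374 CPM. Replicate 3 of each genotype stood apart from replicates 1 and 2. The chi-square per degree of freedom between replicates 1 and 2 was 1.69 in WT and 2.04 in TCKO, above the value of counting noise, but it lay between 16.5 and 23.3 for each pair with replicate 3. Mitochondrial genes took 2.22% (WT) and 2.47% (TCKO) of the counts of replicate 3, against 1.11% to 1.24% elsewhere. By Xist (4583 counts) and Ddx3y (0 counts), TCKO replicate 3 looked female, and the other 5 libraries, with at most 4 of Xist and at least 675 of Ddx3y, looked male. Each member is therefore given below with and without replicate 3.

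The targeted genes checked the labels only in part. Counts over the whole gene would include any exons outside the deleted stretch, and cells without Cre would keep the intact genes. Neither was tested. The study checked the knockout by RT-qPCR of these genes in calvarial bones, femurs and livers. It proposes that residual expression in TCKO femurs may come from other cell types. Tet1 was at 11.9, 13.1 and 13.9 CPM in WT and 7.76, 6.34 and 5.72 in TCKO (log2 fold change -0.97 ± 0.16 SE, adjusted p = 0.00648 by edgeR's quasi-likelihood test, corrected by Benjamini-Hochberg over all tested genes). Tet2 showed no difference beyond the replicate spread (log2 fold change -0.14 ± 0.14, adjusted p = 0.545), and Tet3 was higher in TCKO (0.51 ± 0.09, adjusted p = 0.00745).

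Clec11a (ENSMUSG00000004473, chromosome 7, 44302687 to 44306902, minus strand, GRCm38) is a protein-coding gene that overlaps no other gene of the table. Its level in WT replicates 1, 2 and 3 was 106, 95.4 and 50.9 CPM, from 876, 956 and 420 counts, and in TCKO it was 10.8, 11.4 and 3.93 CPM, from 95, 92 and 35 counts. The lowest WT library lay above the highest TCKO library, and within each genotype replicate 3 was the lowest. Of the tested genes, 38.3% had no overlap between the genotypes, and 18.9% had none and were lower in TCKO. The log2 fold change was -3.27 ± 0.40 (SE), a 9.68-fold lower level (edgeR adjusted p = 0.00169), and it was the 31st lowest of the 13826 tested genes. Within replicates 1 and 2 the level was 9.04-fold lower and within replicate 3 it was 13.0-fold lower. Per length of the gene, Clec11a went from 28.2 ± 9.82 RPKM (CPM divided by the gene length in kilobases) in WT to 2.93 ± 1.40 in TCKO. In rank by RPKM among 12137 tested protein-coding genes this was a move from 1550 to 8154. The study had itself singled out Clec11a by linking hypermethylated regions with expression differences in these libraries, so its direction is not independent evidence. It also reported Clec11a as hypermethylated and in closed chromatin in TCKO, with RUNX2 bound at the promoter. Those data were not analysed here. In bulk RNA, fewer cells that express a gene and less RNA per cell cannot be told apart.

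Itga11 (ENSMUSG00000032243, chromosome 9, 62677826 to 62783982, plus strand) encodes the subunit that gives the receptor its ligand specificity. It had 232, 243 and 243 CPM in WT replicates 1, 2 and 3, from 1920, 2437 and 2003 counts. In TCKO it had 64.8, 65.9 and 19.1 CPM, from 568, 530 and 170 counts. The WT libraries were nearly level, whereas TCKO replicate 3 lay well under the other TCKO libraries, and the genotypes did not overlap. The log2 fold change was -2.26 ± 0.39, a 4.80-fold lower level (edgeR adjusted p = 0.00696) and the 93rd lowest of all tested genes. Within replicates 1 and 2 Itga11 was 3.64-fold lower and within replicate 3 it was 12.7-fold lower. On the RPKM scale it went from 46.7 ± 1.19 to 9.73 ± 5.21, from rank 834 to rank 4238 among the protein-coding genes. Both Clec11a and Itga11 therefore changed over 2-fold, as did 3.19% of the tested genes on the lower side and 3.16% on the higher side at an adjusted p under 0.05. When the counts of the close replicates 1 and 2 were summed to leave 2 samples per genotype, Itga11 no longer passed (log2 fold change -2.49, adjusted p = 0.0854).

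Itgb1 (ENSMUSG00000025809, chromosome 8, 128685654 to 128733200, plus strand) encodes the beta1 subunit shared by many integrins. Its level was 1919, 1969 and 2175 CPM in WT replicates 1, 2 and 3 and 2815, 2789 and 3182 in TCKO, from between 15851 and 28365 counts. Every TCKO library was above every WT library, and replicate 3 was the highest of each genotype. The log2 fold change was 0.54 ± 0.10, a 1.45-fold higher level (edgeR adjusted p = 0.0100), at a threshold that 9.07% of the tested genes passed on the higher side and 8.63% on the lower side. Replicate 3 alone gave a log2 ratio of 0.55, and the other replicates gave 0.53. With 495 ± 33.2 RPKM in WT and 718 ± 53.8 in TCKO it ranked 49 and 31 among protein-coding genes. The call was lost without WT replicate 1 (log2 fold change 0.50, adjusted p = 0.0587) and without WT replicate 2 (0.52, adjusted p = 0.0603), and with replicates 1 and 2 summed (0.54, adjusted p = 0.191).

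**Figure D1:**
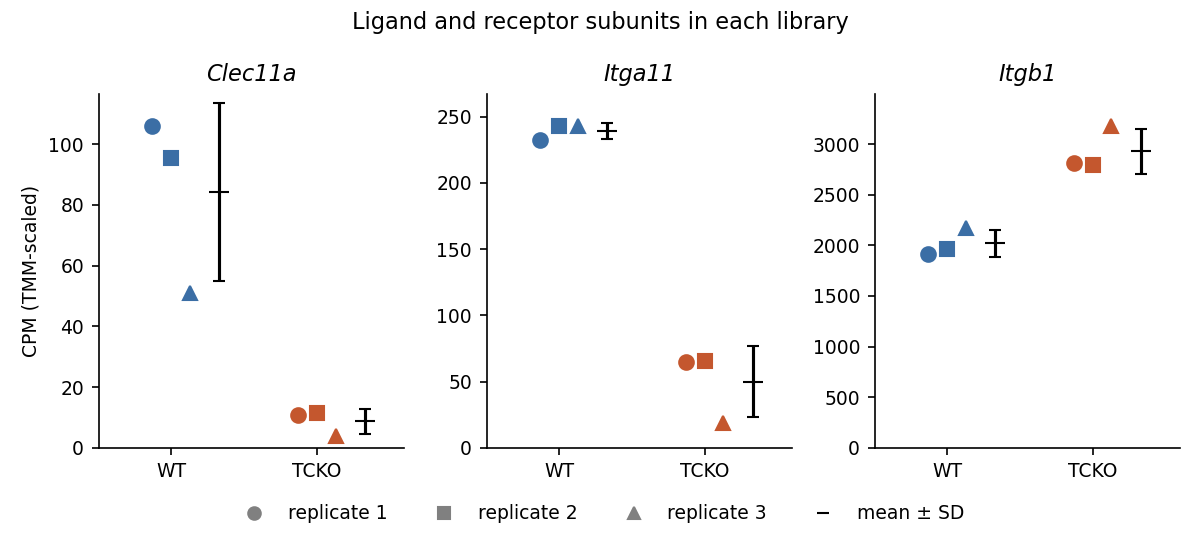
CPM (vertical axes, from 0) of Clec11a, Itga11 and Itgb1 in the 3 WT (blue) and 3 TCKO (orange) libraries, with the replicate number as the symbol and the mean ± SD as a black bar. Clec11a lay between 50.9 and 106 CPM in WT and between 3.93 and 11.4 in TCKO, Itga11 was lowest in TCKO replicate 3 at 19.1 CPM, and Itgb1 was higher in each TCKO library than in any WT library.

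The direction of all 3 members was the same in each of the 19 alternative analyses. Clec11a lay between -3.53 and -2.91 on the log2 scale and passed the test in all of them, with the highest adjusted p of 0.0459 when replicates 1 and 2 were summed. Itga11 lay between -2.69, with replicates 1 and 2 summed and a replicate block, and -1.86, with both replicate 3 libraries left out, and passed in 18 alternatives. Without TCKO replicate 3 alone it was -1.87. Itgb1 passed in 15.

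**Figure D2:**
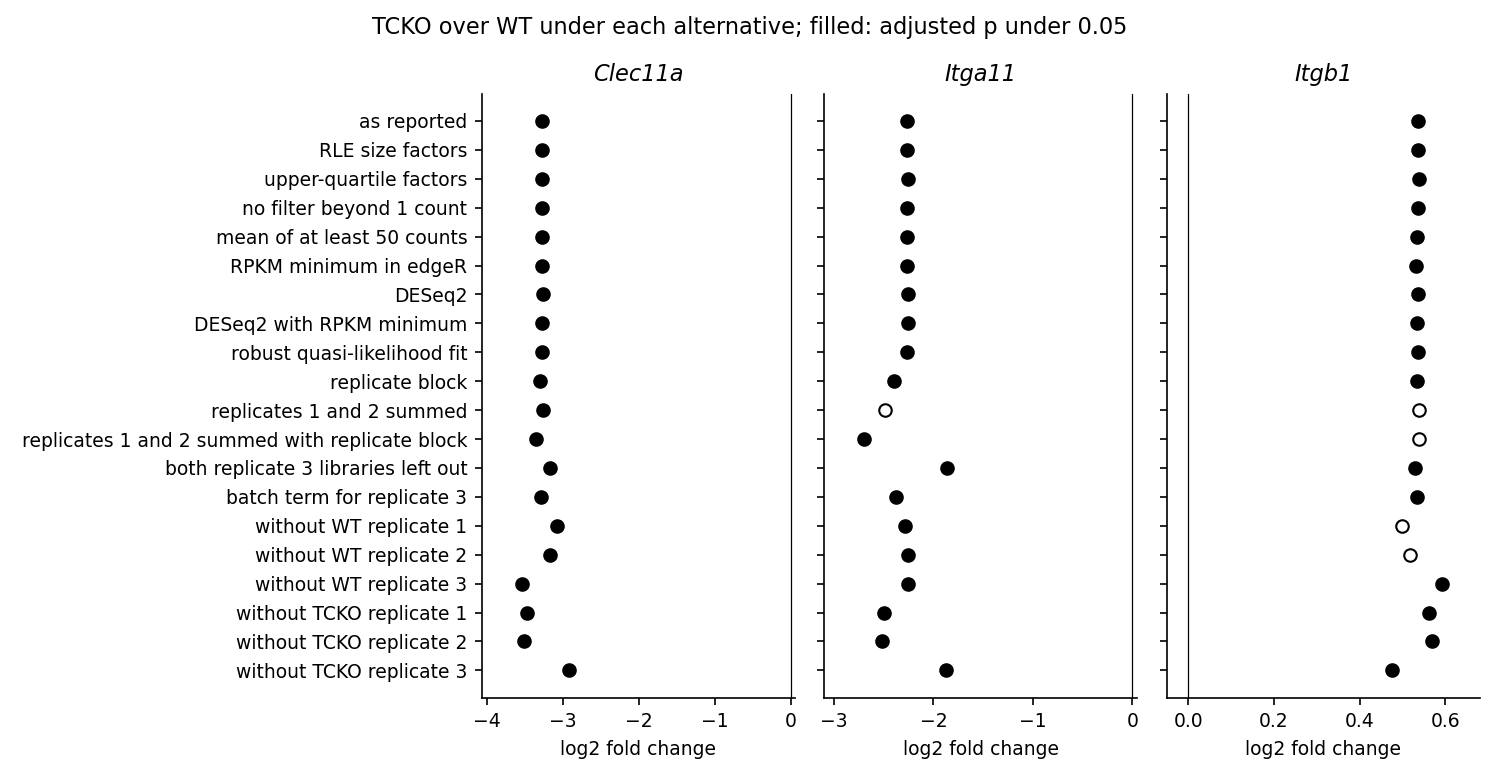
Log2 fold change of TCKO over WT (horizontal axes) for each member under the reported analysis and the 19 alternatives (rows), with filled symbols where the adjusted p was under 0.05. Clec11a is filled in every row, Itga11 is open only with replicates 1 and 2 summed, and Itgb1 is open in 4 rows.

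Since beta1 reaches the membrane only with an alpha chain, its 12 possible alpha partners were compared. At an adjusted p under 0.05, which 17.7% of all tested genes passed in either direction, 4 of the 12 were higher in TCKO, 4 were lower and 4 did not pass. The collagen-binding chains lay on the lower side, with 3 of 4 lower, 0 higher and a median log2 fold change of -1.26. Of the other 8 chains 4 were higher and 1 was lower, with a median of 0.60, against a median over all tested genes of 0.000204. For each count of 0 in a direction given here and below, the counts by edgeR at an unadjusted p under 0.05 and by DESeq2 were also 0, except for Akt1.

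Among the collagen-binding chains, Itga1, which binds collagen IV as well as fibrillar collagen, went from 60.4, 60.6 and 37.2 CPM in WT to 22.5, 17.0 and 13.0 in TCKO (log2 fold change -1.59 ± 0.24, edgeR adjusted p = 0.00451). The genotypes did not overlap, and reads of Pelo, a gene on the same strand within its bounds, may be mixed with it. Itga10, the alpha10 chain known from cartilage, went from 10.2, 9.08 and 9.82 CPM to 5.37, 4.47 and 5.38 (-0.93 ± 0.16, adjusted p = 0.00709). Itga2 was low in every library, between 1.35 and 3.79 CPM, and did not pass (-0.65 ± 0.32, adjusted p = 0.202). Itga11 held between 89.1% and 91.6% of the summed RPKM of these 4 chains in WT and 83.2%, 85.9% and 65.9% in TCKO replicates 1, 2 and 3.

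Among the remaining chains, Itga5, which pairs with beta1 as the main fibronectin receptor, was higher in TCKO, at 532, 551 and 573 CPM against 261, 251 and 355 in WT (log2 fold change 0.93 ± 0.13, edgeR adjusted p = 0.00341). Itga7, a laminin-binding chain, rose from 5.09, 5.69 and 4.0 to 17.0, 19.5 and 11.2 CPM (1.68 ± 0.24, adjusted p = 0.00346). Itga4, known from leukocytes, rose by a similar 1.68 ± 0.40 (adjusted p = 0.0266), and Itga6, a laminin-binding chain, by 0.53 ± 0.14 (adjusted p = 0.0344). Itga9 was lower (-0.59 ± 0.13, adjusted p = 0.0220), though it overlaps the pseudogene Gm10157, which has more counts. Each of these last 3 calls depended on single libraries: the highest adjusted p with a library left out was 0.0984 for Itga4 and 0.129 for Itga6, both without WT replicate 1, and 0.0873 for Itga9 without TCKO replicate 2. Itgav, a chain shared with several beta subunits, was at nearly the same level in both genotypes (-0.06 ± 0.09, adjusted p = 0.690). Itga3 (0.51 ± 0.19, adjusted p = 0.0985) did not pass here but did with a replicate block (adjusted p = 0.00410) and without WT replicate 3 (0.67, adjusted p = 0.0415). Itga8 (0.67 ± 0.30, adjusted p = 0.176) also did not pass here. It did with a batch term for replicate 3 (0.72, adjusted p = 0.0397) and with both replicate 3 libraries left out (0.39, adjusted p = 0.00625). It did not with replicates 1 and 2 summed, with or without a replicate block.

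**Figure D3:**
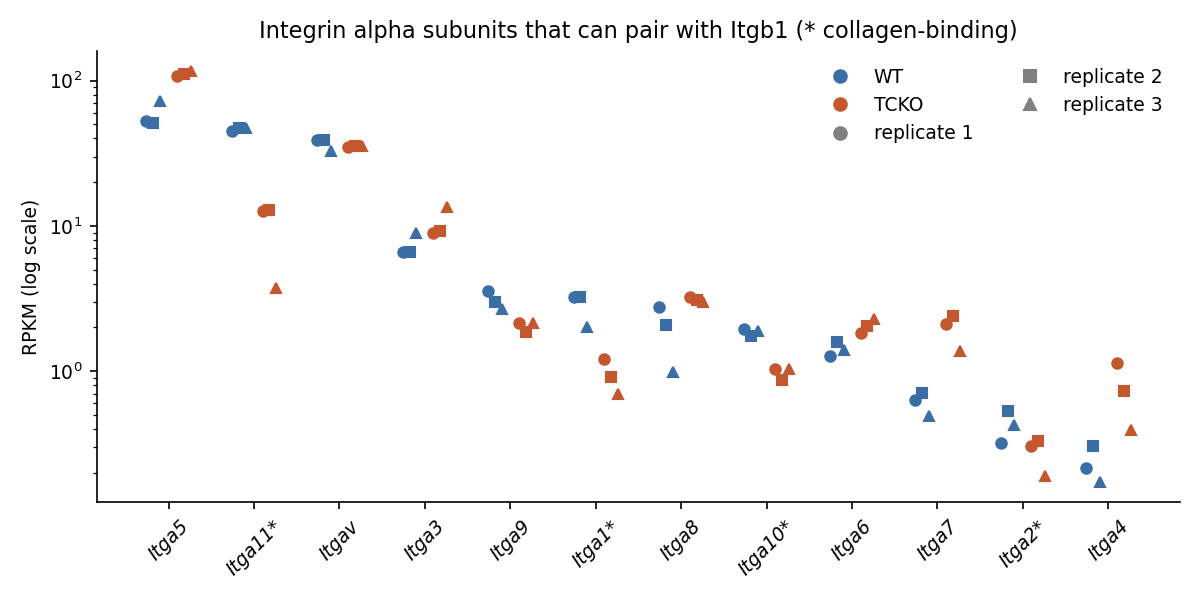
RPKM (vertical axis, log scale) of the 12 alpha chains that can pair with Itgb1, ordered by their mean in WT, in each WT (blue) and TCKO (orange) library, with replicates as symbols and collagen-binding chains marked by an asterisk. Itga11 was close to Itgav and Itga5 in WT and fell to between 3.72 and 12.8 RPKM in TCKO, while Itga5 was higher in each TCKO library than in any WT library.

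The makeup of the alpha chain RNA was compared within each library on the RPKM scale. Itga11 held 28.7%, 30.2% and 27.7% of the summed RPKM of the 12 chains in WT replicates 1, 2 and 3 and 7.11%, 7.08% and 2.07% in TCKO. The mean share was 28.9% ± 1.25 in WT and 5.42% ± 2.90 in TCKO (SD, n = 3), and the genotypes did not overlap. The difference of -23.4 percentage points had a two-sided p of 0.1 in an exact permutation test, the smallest that 3 against 3 libraries allow. Within the 4 collagen-binding chains alone the difference in the share of Itga11 was -11.8 points. In the same libraries Itga5 held 36.0% ± 5.29 in WT and 62.3% ± 2.01 in TCKO, and Itgav held 22.8% ± 3.25 and 19.7% ± 0.179. The summed RPKM itself was 158, 157 and 171 in the WT libraries and between 178 and 181 in TCKO.

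**Figure D4:**
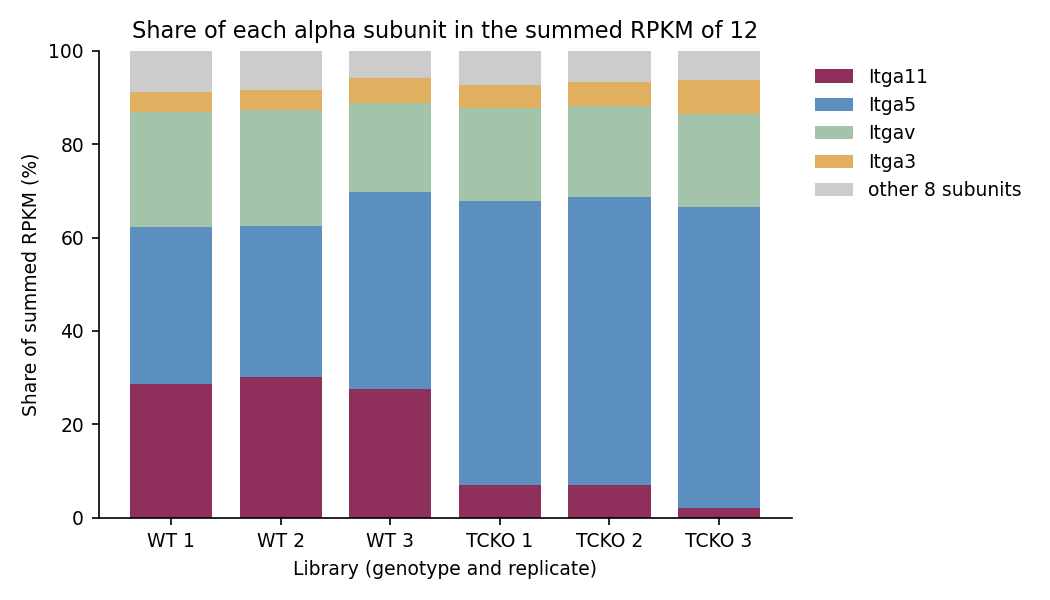
Share of each alpha chain in the summed RPKM of 12 chains (vertical axis, percent), one stacked bar per library. The Itga11 segment took between 27.7% and 30.2% in WT and between 2.07% and 7.11% in TCKO, and the Itga5 segment was the tallest in each library.

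Ratios between the members shifted in the same libraries. Per length, Itgb1 exceeded Itga11 by 10.4, 10.2 and 11.3 times in WT replicates 1, 2 and 3 and by 54.6, 53.2 and 210 times in TCKO, so TCKO replicate 3 was far from the rest. Itgb1 stood at between 2.98 and 3.12 times the summed RPKM of its 12 partners in WT and between 3.77 and 4.34 times in TCKO. The ratio of receptor chain to ligand, Itga11 over Clec11a in RPKM, was 1.27, 1.48 and 2.77 in WT and 3.47, 3.34 and 2.82 in TCKO. That ratio nearly met between the genotypes in replicate 3. RNA ratios do not give the amount of assembled receptor.

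The C-type lectins most related to osteolectin were nearly absent. Clec3a had between 1 and 10 counts in a library and Clec3b at most 1, so neither was tested. Of 13 integrin subunits outside the beta1 family, 9 were tested, 2 were lower and 0 were higher at an adjusted p under 0.05, beside 8.63% and 9.07% of all tested genes. With a replicate block Itgb2 was also lower (-0.82, edgeR adjusted p = 0.0467) and Itgb3 higher (0.56, adjusted p = 0.0123), and without TCKO replicate 3 Itgb3 was at 0.86 (adjusted p = 0.00856). Neither Itgb2 nor Itgb3 passed with replicates 1 and 2 summed, with or without the block. Itgb5, a partner of alpha v and the subunit with the highest RPKM of that list in WT, had 454, 439 and 280 CPM in WT and 243, 253 and 152 in TCKO (log2 fold change -0.86 ± 0.24, adjusted p = 0.0424). Itgam, a myeloid subunit, was also lower (-1.08 ± 0.26, adjusted p = 0.0279). Both calls were lost when single libraries were left out, with adjusted p up to 0.147 for Itgb5 without WT replicate 1 and 0.113 for Itgam without WT replicate 2.

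Fibrillar collagens, the other ligands of the alpha11 beta1 integrin, were among the most abundant RNAs. Of the 5 collagen genes 2 were lower, 0 were higher and 3 did not pass, with a median log2 fold change of -0.61. Over all tested genes 8.63% were lower and 9.07% higher. Col5a1, a chain of the fibril-nucleating collagen V, had 2491, 2465 and 2447 CPM in WT and 1550, 1530 and 1331 in TCKO (-0.75 ± 0.09, edgeR adjusted p = 0.00190). Col1a1, a chain of the main bone collagen, was lower by a log2 fold change of -0.61 ± 0.16 (adjusted p = 0.0380), a call lost without any 1 of replicates 1 and 2 of either genotype (adjusted p up to 0.134, without WT replicate 1). Col1a2 (-0.85 ± 0.27, adjusted p = 0.0676) and Col5a2 (-0.46 ± 0.15, adjusted p = 0.0678) did not pass here but did with a replicate block, at adjusted p of 0.0180 and 0.0188, and by DESeq2, and in each of these fits the count lower was 4. Those fits kept the close replicates 1 and 2 as separate libraries. With these replicates summed, neither Col1a2 nor Col5a2 passed, with or without the block. Col3a1 did not pass (0.56 ± 0.29, adjusted p = 0.223). TCKO replicate 3 was the lowest of its genotype for these 3 genes, and without it Col1a2 was at -0.57 (adjusted p = 0.00249), Col5a2 at -0.31 (adjusted p = 0.0253) and Col3a1, on the higher side, at 0.87 (adjusted p = 0.00159).

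Inside the cell, adaptors and kinases at the integrin tail were examined. Of 21 listed genes 20 were tested, of which 5 were higher, 3 were lower and 12 did not pass, beside 9.07% higher and 8.63% lower of all tested genes, with a median log2 fold change of 0.18. Src, a tyrosine kinase of adhesion sites, went from 59.7, 58.2 and 61.7 CPM in WT to 81.4, 89.2 and 84.1 in TCKO (0.50 ± 0.07, edgeR adjusted p = 0.00333). Bcar1, a scaffold phosphorylated by Src, rose by 0.56 ± 0.15 (adjusted p = 0.0400). Fermt2, the kindlin of adherent cells that activates beta1 integrin, rose by 0.38 ± 0.07 (adjusted p = 0.00897). Lims2, an adaptor of the ILK complex, fell (-1.08 ± 0.15, adjusted p = 0.00332), as did Tln2, the less abundant of the talins (-0.57 ± 0.09, adjusted p = 0.00448). Fermt3, the kindlin of blood cells, was also lower (-0.95 ± 0.27, adjusted p = 0.0476), but it shares its locus with Trpt1. Zyx and Vcl were the other genes that passed on the higher side. Zyx, a zyxin-family adhesion protein, had the highest RPKM of the list in WT. The calls of Bcar1, Fermt3, Zyx and Vcl were each lost without WT replicate 1 and without WT replicate 2, among other libraries, with adjusted p up to 0.149 for Bcar1, 0.174 for Fermt3, 0.0966 for Zyx and 0.131 for Vcl. Tln1, the main talin, did not pass (-0.01 ± 0.08, adjusted p = 0.943). Ilk had fewer counts than the genes that overlap it, Rrp8 and Taf10, and its value is uncertain.

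RNA levels give neither kinase activity nor the amount of beta-catenin protein. For the kinase arm that links integrin to beta-catenin, the RNA of 12 PI3K, AKT and GSK3 genes was read. All were tested, 0 were higher, 2 were lower and 10 did not pass, a share close to the 17.7% of all tested genes that passed, with a median log2 fold change of 0.02 (on the higher side 1, Akt1, had an unadjusted p under 0.05, and DESeq2 called it). Pik3r1, a regulatory subunit of PI3K, and Akt2 were lower by small amounts (-0.35 ± 0.08, edgeR adjusted p = 0.0221, and -0.24 ± 0.07, adjusted p = 0.0390). Without WT replicate 2 the adjusted p of Pik3r1 was 0.0909, and without WT replicate 1 that of Akt2 was 0.146. Akt1, with the highest RPKM of these genes in WT, was at 436, 417 and 429 CPM in WT and 490, 506 and 504 in TCKO and missed the threshold (0.23 ± 0.07, adjusted p = 0.0568), which it passed without WT replicate 3 (adjusted p = 0.0497) or TCKO replicate 3 (adjusted p = 0.0435). Gsk3b (-0.08 ± 0.08) and Gsk3a (0.03 ± 0.07) did not pass, at adjusted p of 0.518 and 0.804.

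Beta-catenin itself, Ctnnb1, had 755, 765 and 639 CPM in WT and 826, 792 and 670 in TCKO (log2 fold change 0.08 ± 0.11, edgeR adjusted p = 0.656), and the genotypes overlapped. Of 8 tested genes for beta-catenin and its nuclear partners, 1 was higher and 1 lower, near the 17.7% of all tested genes that passed. Bcl9, a coactivator, rose by 0.53 ± 0.09 (adjusted p = 0.00543), and Tcf7l1, a mostly repressive TCF factor, fell (-0.39 ± 0.09, adjusted p = 0.0225), a call lost without WT replicate 1 (adjusted p = 0.0959), WT replicate 2 or TCKO replicate 1. Known target genes of beta-catenin did not move as 1 group: of 7 tested, 1 was higher, 2 were lower and 4 did not pass, beside 9.07% higher and 8.63% lower overall tested genes. Ccnd1, the cyclin D1 gene, was at 795, 769 and 438 CPM in WT and 159, 151 and 202 in TCKO (-1.96 ± 0.23, adjusted p = 0.00151). Nkd1, a feedback inhibitor of Wnt signalling, fell from 9.08, 12.6 and 11.3 to 3.31, 3.11 and 3.25 CPM (-1.77 ± 0.19, adjusted p = 0.000952). Axin2, another feedback inhibitor, was higher (0.51 ± 0.14, adjusted p = 0.0368), but lost the call when any 1 library was left out (adjusted p up to 0.139, without WT replicate 1) and was not called by DESeq2. Sp5 was at 0 counts in all libraries, and Dkk1, Notum and Rnf43 were too low to test.

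Of 9 osteoblast genes downstream of osteolectin and the osteogenic programme, 6 were tested, with 3 lower, 1 higher and 2 that did not pass. Over all tested genes 8.63% were lower and 9.07% higher. Alpl, the alkaline phosphatase of mineralising cells, went from 17.3, 16.3 and 57.6 CPM in WT to 2.51, 1.37 and 3.81 in TCKO (log2 fold change -3.54 ± 0.62, edgeR adjusted p = 0.00743). Without WT replicate 3, the highest library, it was -2.69. Spp1, which encodes the matrix protein osteopontin, went the other way, from 897, 845 and 1762 to 8915, 9270 and 3311 CPM (2.62 ± 0.44, adjusted p = 0.00669). In replicate 3 this gap was the smallest, and with both replicate 3 libraries left out the log2 fold change was 3.38. With replicates 1 and 2 summed Spp1 did not pass (edgeR adjusted p = 0.123), nor with a replicate block added to that fit (adjusted p = 0.114). Runx2, the transcription factor that specifies osteoblasts, was lower by a modest amount (-0.45 ± 0.07, adjusted p = 0.00397), and Col1a1 was described above. Sp7, the osterix gene, was at 108, 112 and 283 CPM in WT and 31.3, 31.3 and 103 in TCKO and did not pass (-1.59 ± 0.55, adjusted p = 0.0877). It did with a replicate block (-1.68, edgeR adjusted p = 0.000152) and without TCKO replicate 3 (-2.41, adjusted p = 0.00940). Ibsp, a mineralisation gene, did not pass (-0.38 ± 0.47, adjusted p = 0.620), but without TCKO replicate 3 it was at -1.21 (adjusted p = 0.0252).

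**Figure D5:**
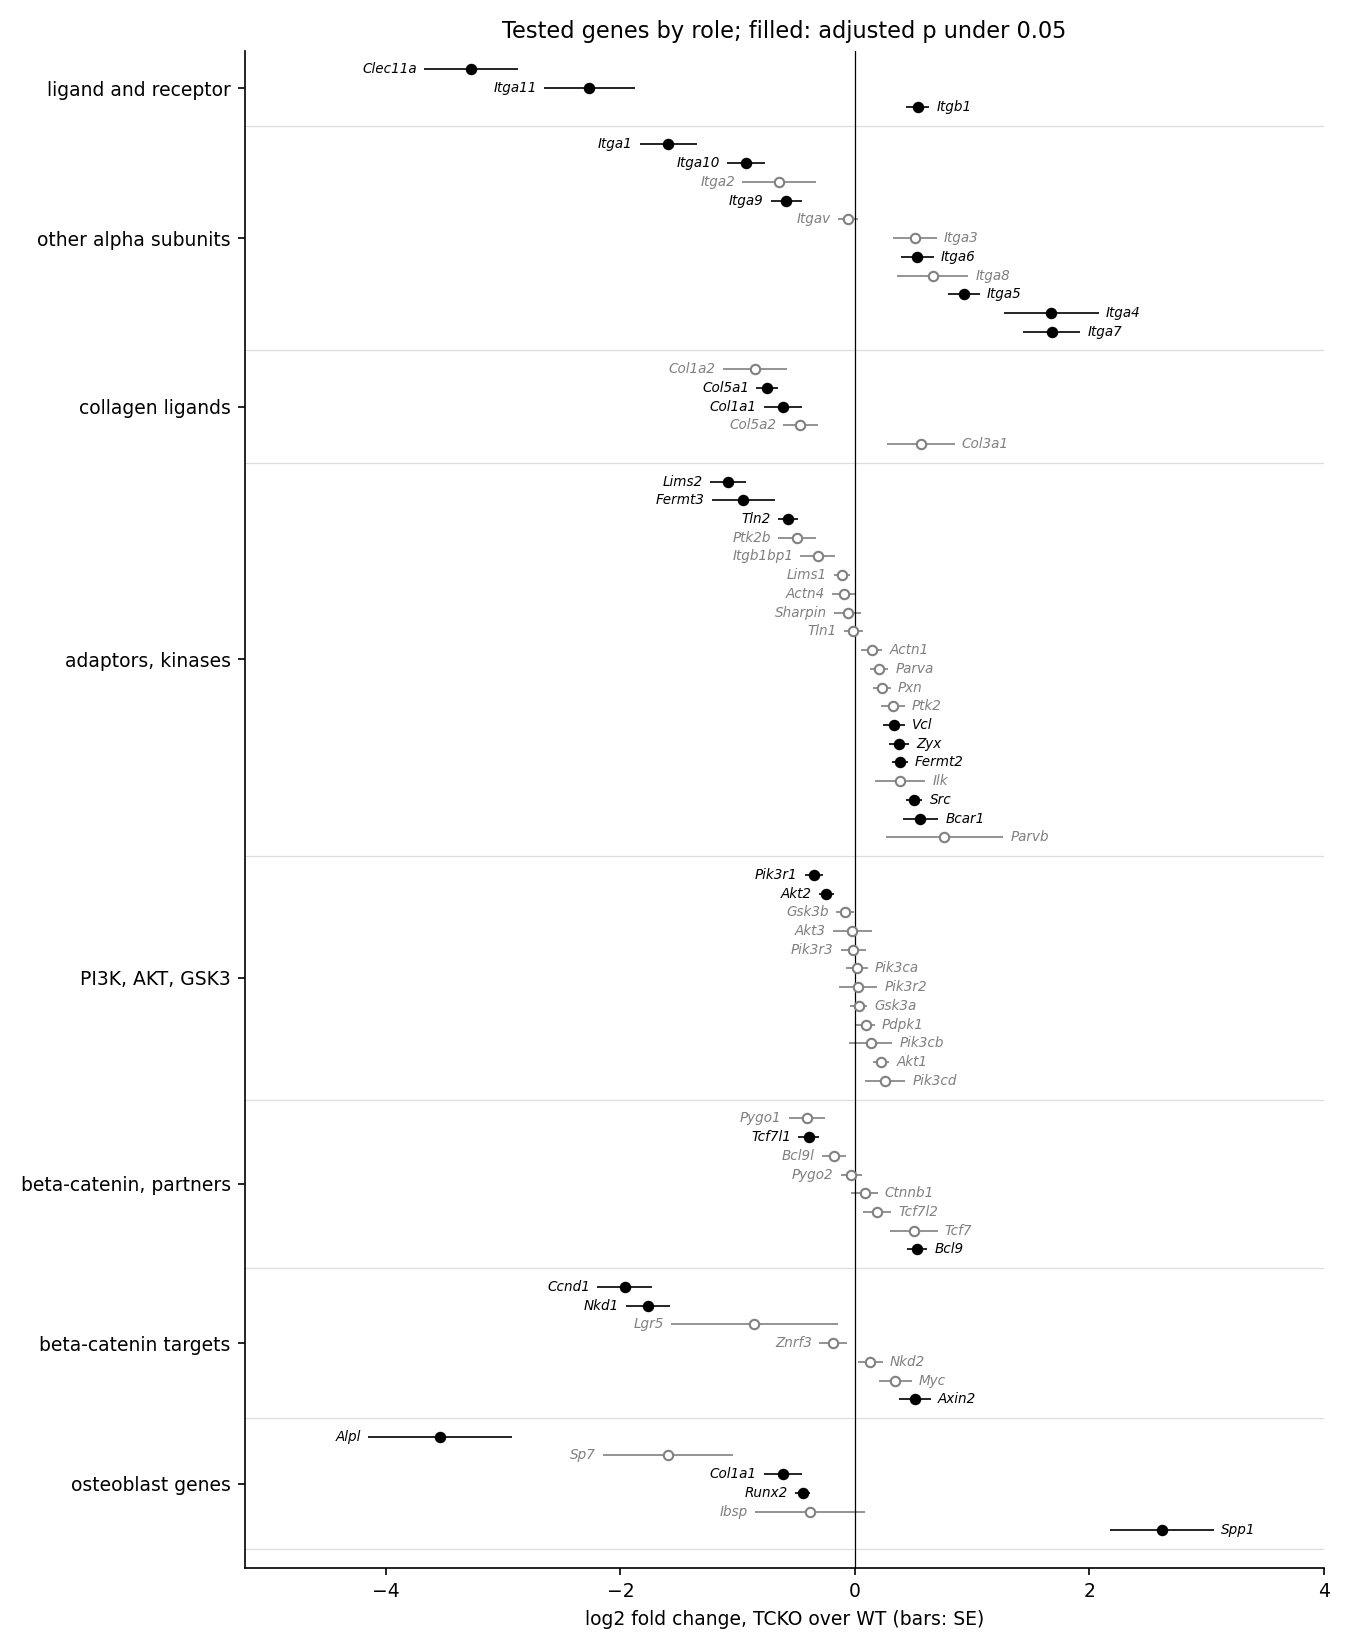
Log2 fold change of TCKO over WT (horizontal axis, bars are SE) for every tested gene of the ligand, receptor, adaptor, kinase, beta-catenin and osteoblast lists, grouped by role, filled where the adjusted p was under 0.05. Clec11a at -3.27 and Itga11 at -2.26 lie far to the left, the PI3K, AKT and GSK3 genes lie between -0.35 and 0.26, and Spp1 at 2.62 is the highest.

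Over all these lists, 29 of the 77 tested genes other than the members passed an adjusted p of 0.05, which 17.7% of all tested genes did. That count rested on the closeness of replicates 1 and 2. It was 1 when they were summed, 14 when they were summed with a replicate block, and between 15 and 32 with single libraries left out, at 15 or 16 without replicate 1 or 2 of either genotype and at 29 and 32 without WT replicate 3 and TCKO replicate 3. Spp1, Runx2, Col5a1, Itga10, Fermt2 and Tln2 were among the genes that passed in neither summed fit.

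The genes beside the members were read for shifts of the whole neighbourhood. Of 8 genes within 50 kb of Clec11a, 5 had 0 counts and 1 was tested. This was Shank1, a postsynaptic scaffold gene that runs the other way from Clec11a, with 3351 bp between the 5′ ends of the pair. In WT its counts were 68, 72 and 72, and in TCKO they were 32, 22 and 28 (log2 fold change -1.33 ± 0.19, edgeR adjusted p = 0.00367). It was thus also lower without overlap, as were 18.9% of all tested genes, and 8.63% passed on the lower side. With replicates 1 and 2 summed its adjusted p was 0.0592. A single tested gene cannot show a shift of the whole neighbourhood. Near Itga11, Fem1b, at a distance of 7839 bp, was tested and did not pass (0.34 ± 0.12, adjusted p = 0.0828), but did with a replicate block (0.34, adjusted p = 0.0139) and without TCKO replicate 3 (0.45, adjusted p = 0.0151). With replicates 1 and 2 summed Fem1b did not pass, with or without the block. None of 5 genes within 50 kb of Itgb1 had enough counts to be tested, and the highest, Ccdc7a, had at most 7.

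Genes whose levels across the 6 libraries lay closest to each member were found by the root mean square difference of centred log2 CPM among 9261 genes with a mean of at least 100 counts. For Clec11a these were Omd (0.13), Fam180a (0.15), Pappa2 (0.23), Dio3 (0.34) and Islr (0.37), with log2 fold changes between -3.76 and -2.81. For Itga11 they were Igfbp5 (0.23), Tlr4 (0.32), Igfbp4 (0.32), Ogn (0.32) and Ccn5 (0.33), between -2.41 and -1.70. For Itgb1 they were Itprip (0.03), Mad2l1 (0.03), Dot1l (0.04), Ikzf2 (0.04) and Mphosph6 (0.05), between 0.51 and 0.57. The libraries share genotype and the replicate 3 difference, so the likeness is a description.

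Markers of cell types that could carry these genes were read beside them. For every marker count here and below, the shares over all tested genes were 8.63% lower and 9.07% higher. The share lower by over 2-fold was 3.19%. Of 12 osteoblast markers 9 were tested, with 4 lower, 1 higher and 4 that did not pass. Sparc was lower (log2 fold change -0.95 ± 0.12, edgeR adjusted p = 0.00198), as were Col1a1, Runx2 and Alpl, and Spp1 was higher. Dmp1, a gene of osteocytes and late osteoblasts, had at most 3 counts in a library, and Bglap, whose near-identical copies share reads, at most 2. The summed osteoblast level ran from 40692 to 42920 CPM in WT and from 22740 to 37256 in TCKO. Spp1, part of that sum, was at 3311 to 9270 CPM in TCKO on the TMM scale used for single genes. Chondrocyte markers moved together with Clec11a and Itga11: all 11 were lower and over 2-fold so, with summed levels of 7284 to 9093 CPM in WT and 923 to 1251 in TCKO. Col2a1, the main cartilage collagen, was at 6090, 5728 and 7539 CPM in WT and 843, 773 and 598 in TCKO (-3.13 ± 0.17, adjusted p = 9.69e-05). Of these 11 calls, that of Matn1 was lost without any of 5 single libraries (adjusted p up to 0.140, without WT replicate 1). The part of cartilage cells in the fall of Clec11a and Itga11 was not tested.

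Among the hypertrophic chondrocyte markers, where osteolectin is known to be made, 3 of 4 were tested and 1, Col10a1, was lower (-1.72 ± 0.33, edgeR adjusted p = 0.0108), with Mmp13 (0.04 ± 0.69) and Pth1r (-0.18 ± 0.25) not passing and Ihh at most 2 counts. Without TCKO replicate 3, its lowest library, Mmp13 was at 0.57 (adjusted p = 0.0342). Of 6 markers of leptin receptor-expressing stroma, 5 were tested. Lepr was lower (-2.21 ± 0.23, adjusted p = 0.000928), Cxcl12, a chemokine of that stroma, was higher (1.38 ± 0.13, adjusted p = 0.000655), and Adipoq was at 0 counts throughout. Of the other 3, Foxc1 was lower and Ebf3 higher, and the Foxc1 call was lost without WT replicate 2 (adjusted p = 0.0536). Their summed levels were 212 to 228 CPM in WT and 171 to 190 in TCKO.

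Blood cell and osteoclast markers summed to between 504 and 818 CPM in WT and between 184 and 563 in TCKO. Most of this was Lyz2, which did not pass (-0.52 ± 0.46, edgeR adjusted p = 0.482). Of 9 tested 4 were lower and 0 higher (with a replicate block 7 were lower). Ctsk, which the study cites as a periosteum stem cell marker, was lower (-2.39 ± 0.17, adjusted p = 0.000148). Ptprc, which marks all white blood cells, was under 5 CPM in each library. Fibroblast and mesenchyme markers summed to 9648 to 10382 CPM in WT and 6647 to 8433 in TCKO. Most of that sum was Fn1, the fibronectin gene, which did not pass (-0.44 ± 0.13, edgeR adjusted p = 0.0537). Of 6 tested, 2 were lower and 1 higher (with a replicate block 5 passed, Fn1 among them). Of these calls, those of Csf1r (adjusted p up to 0.0955, without WT replicate 1), Itgam, Thy1 (0.135, without TCKO replicate 1) and Prrx1 (0.149, without WT replicate 2) were lost when single libraries were left out. Skeletal muscle markers had 0 of 3 tested genes past the threshold in either direction by edgeR over all 6 libraries. Myf5 and Pax7 were at 0 counts. Des passed narrowly without WT replicate 3 (adjusted p = 0.04997). With both replicate 3 libraries left out all 3 were higher, with Des at 0.91, Actc1 at 1.86 and Myh3 at 1.18 (edgeR adjusted p up to 0.00439). That fit holds only the close replicates 1 and 2, so its p-values measure the small spread between them. In replicate 3 Actc1 went the other way, from 4.24 CPM in WT to 0.449 in TCKO. Myh3 did so too, from 9.94 to 0.673, and Des was at 5.21 and 5.27. Of 5 endothelial markers only Kdr was tested, and it was higher in TCKO (6.12 ± 0.67, adjusted p = 0.00111, between 5.44 and 7.08 with single libraries left out), while Pecam1, Cdh5, Tek and Emcn had at most 8 counts in a library. The part of these cells in the levels of the 3 members was not tested.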

How the data were processed

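RNA-seq of 6 libraries (3 WT, 3 TCKO) was analysed. Per the labels and the study's methods, the authors aligned reads to GRCm38 (Ensembl release 99 annotation) with STAR 2.7.0e and summarised exon reads by gene with featureCounts 2.0.0. The deposited values are raw counts with a gene length in bp, not normalized. Whether the strand was used in counting is not given in the sources used here, so overlapping genes are uncertain. Symbols matched 55144 genes (99.4%). No column was left unassigned.

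Counts were fitted in edgeR 4.0.16 (R 4.3.3) with filterByExpr, TMM scaling and the quasi-likelihood test over all 6 libraries with genotype as the term. Benjamini-Hochberg adjustment ran over 13826 genes, and a gene passed at an adjusted p under 0.05. Standard errors come from the F statistic. CPM is TMM-scaled, and RPKM divides it by the deposited length in kilobases. Summed marker levels and the floor of 3 counts use the raw library totals instead. The share of Itga11 was compared by an exact two-sided permutation test (scipy 1.17.1). Floors of 3 counts cover counting error only. The fit was tested on simulated counts.

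The 3 members, gene lists, rules and alternatives were chosen with earlier results of these data known. Named are the members, Tet genes, list members that passed and the highest in WT by RPKM (values for at most 6 a list), genes within 50 kb, and the 5 closest genes by level. Values of other genes were added for context after they were seen. Of the lists, 1 gene was withdrawn from every count, and its result is not reported here.

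Alternatives were RLE or upper-quartile scaling, 3 other low-count filters (at least 1 count, a mean of at least 50 counts, an RPKM above 0.24), DESeq2 1.42.0 with and without that RPKM minimum, a robust fit, the replicate number as a block, replicates 1 and 2 summed (with and without the block), both replicate 3 libraries left out, a batch term for replicate 3, and each library left out. Only the summed fits counted the close replicates 1 and 2 as a single sample. The data linked replicate 3 of WT with replicate 3 of TCKO but did not tell numbers 1 and 2 apart. Deviations from the group means correlated by 0.204, 0.214 and 0.347 for the same number over 13826 genes. Between numbers 1 and 2 they correlated by 0.188 and 0.225, so a pairing of these numbers was not shown.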

Additional observations from a re-analysis of the deposited data

How the results depend on the processing

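No member and no gene named as passing reversed under any alternative tried. Signs did change among genes that did not pass. Mmp13 was at -0.42 with the replicate block, and Pth1r was at 0.23 with both replicate 3 libraries left out. As reported, 437 genes were called higher and 441 lower in TCKO (adjusted p under 0.05 and over 2-fold). With a mean of at least 50 counts these were 255 and 288, with replicates 1 and 2 summed 178 and 146, and with both replicate 3 libraries left out 663 genes were higher. With single libraries left out they ranged from 295 to 538 higher and from 300 to 511 lower. Clec11a passed throughout. Itga11 missed the threshold with replicates 1 and 2 summed (log2 fold change -2.49). Itgb1 did so in that fit (0.54), with the summed replicates and a replicate block (0.54), and without WT replicate 1 or WT replicate 2, where single libraries left out gave 0.48 to 0.59. In the fit with the replicate block, the log2 fold changes were -3.30 for Clec11a (adjusted p = 3.65e-05), -2.39 for Itga11 (0.00376) and 0.53 for Itgb1 (0.00462), and no member's call changed. The share of Itga11 stayed lower in TCKO in every variant, by 11.8 to 31.1 percentage points, and 3 against 3 libraries cannot give a p under 0.1. Of 71 genes named with an adjusted p under 0.05, all kept it with RLE or upper-quartile scaling, the replicate block, a batch term or both replicate 3 libraries left out, 69 with DESeq2, 45 with replicates 1 and 2 summed with the block, 17 without it, and 48 to 66 with single libraries left out. The pathway count was 29 as reported, 38 with the replicate block, 46 with a batch term and 55 with both replicate 3 libraries left out.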
